A study of Mus musculus with 6 samples.

Results

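The junctions described here are back splices of mouse mural granulosa cells, read from exon to exon, that the typing step left without a class. A back splice is a read that joins the downstream end of a stretch of RNA to an upstream start, which is what a circular RNA (circRNA) leaves in sequencing data. The members were chosen by their own reads: both ends lie in exons, a gene is named, the type is neither circRNA nor ciRNA (an intronic circle), and at least 10 back-splice reads were counted over the 6 libraries. This gave 807 of the 316626 junctions in the deposited table, or 807 of 164859 untyped exon-exon junctions that name a gene. At the threshold, 91 members had 10 reads and 127 junctions just outside it had 9. Among all 8361 junctions of any type that name a gene and reach 10 reads, 6968 were typed circRNA. The 807 members fell in 488 gene entries (39 of these entries list several gene names), and 225 entries also had typed circRNA, 719 in all, which serve as their reference.

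The cells came from wild-type CF-1 female mice, 21 days old, that were all primed with 5 IU of equine chorionic gonadotropin (eCG). The 4-h post-hCG group (3 mice) also received human chorionic gonadotropin (hCG), which acts in place of the ovulatory LH surge, and was collected 4 h later. The 0-h group (3 mice) was collected 46 h after eCG alone. Each mouse gave 1 library, and the cells were expelled by puncture of preovulatory follicles of these primed immature ovaries, so the libraries may hold other ovarian cells. Counted over gene-naming junctions, the libraries held 156625, 135198 and 119094 back-splice reads at 4-h post-hCG and 162761, 163145 and 128354 back-splice reads in the 0-h libraries. Of the fixed granulosa markers, 8 of 8 had a junction with linear counts, summing to between 17447 and 20205 at 4-h post-hCG and between 17320 and 23360 at 0-h. The sums for 6 of 6 theca and stroma markers were 1001 to 1059 at 4-h post-hCG and 1150 to 1787 at 0-h, and those for 4 of 6 leukocyte markers 41 to 62 at 4-h post-hCG and 48 to 64 at 0-h. The largest sums of another cell type were those of red cells (1 of 2 markers), 3514 to 7158 at 4-h post-hCG and 4546 to 4826 at 0-h, and oocyte markers (6 of 6) summed to 467 to 694 at 4-h post-hCG and 509 to 626 at 0-h. No linear count at a junction exceeded 7951 in any library, so the sums of abundant markers may be too low. The part of other cells in the results was not tested, and a smaller number of cells cannot be told apart from less RNA per cell.

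Splicing joins the 3′ end of an exon (the donor, followed in the intron by GT) to the start of a later exon (the acceptor, preceded by AG). In a circRNA a donor is joined backwards, to the acceptor of an earlier exon or of its own, so the bases around a back splice show whether it carries the splice pair. A small class of introns, removed by the minor (U12-type) spliceosome, carries a long and well conserved donor sequence instead, and some of these introns end in AC and begin with AT. The programs that type circRNA work from lists of annotated exon ends, so a junction that misses a listed end by a few bases, or uses an exon that the list lacks, stays untyped.

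The sequences at the ends of the members separated them into kinds, each shown here with its most-read or clearest case. Each run gives 15 bases on either side of the end, 5′ to 3′ on the strand of the gene (GRCm38, RefSeq), and capitals mark the pair of bases just outside the joined RNA. Tulp4 (chr17:6137211-6139156, + strand) and Gm53 (chr11:96262812-96264845, + strand) had AG before the acceptor and GT after the donor. Tmem87b (chr2:128841235-128849061, + strand) had AC and AT, the pair of a U12-type intron. Katnal1 (chr5:148904566-148921411, − strand) had GG and CA, which become AG and GC when both ends move by a single base. Malat1 (chr19:5801881-5801946, − strand) and Calr (chr8:84842710-84842760, − strand) had no splice pair and lie in purine-rich stretches.
Tulp4 acceptor: gtcgttgttttacAGagttgtaagagtcca
Tulp4 donor: ggccacaacagtgagGTgagttctactctg
Gm53 acceptor: tcctatgtcttctAGaggaaaatgctaatc
Gm53 donor: gggcctggccagatgGTgagtgtgtgcgaa
Tmem87b acceptor: taactggtttttcACatttttataagtttg
Tmem87b donor: ttcacagatgtgtaaATatcctctgttcaa
Katnal1 acceptor: tatcattttatcaGGtgtctgaaagaagat
Katnal1 donor: ggagagatgacaaggCAaggctctgattca
Malat1 acceptor: gctagtatttggaGAaagaagattagaaaa
Malat1 donor: aagaaaaagctgttaGAgaagataggaaaa
Calr acceptor: aagcgtaaagaggAAgaagaagctgaggat
Calr donor: gatgaagatgaggacGAagaagatgagaag

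Of the 807 members, 132 (16.4%) had both ends at exon edges of the GENCODE annotation, 293 (36.3%) had AG and GT with an annotated edge at a single end, and 27 had AG and GT with neither end annotated. A further 268 (33.2%) lay within a single exon with other flanking bases, 78 had other flanks and were not held within a single exon, and 9 had AG and GT on the strand opposite to the named gene. These kinds held 10075, 10562, 3881, 7823, 3779 and 205 of the 36325 member reads, in the same order. In what follows, members within a single exon are the 268 with other flanks. Some members of the other kinds, such as that of Zfa, also lie inside an exon. The deposited junction code was used to assign these kinds. Read against the genome, code 1 stood for AG and GT on the named strand, code 0 for other flanks and code 2 for AG and GT on the opposite strand. The median member had 17 reads, 301 members were read in all 6 libraries, and 16 were read in a single library.

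The kinds differed in size and in linear expression. The median span between the ends was 13768 bases where both were annotated, 8894 bases where a single end was, and 69.5 bases for the members within a single exon. The linear count, which the authors give beside each junction for the RNA in normal order, had a median of 532 over the 6 libraries where both ends were annotated, 500 where a single end was, and 19132.5 for members within a single exon. No linear count in any library exceeded 7951, and 40 members reached at least 7000 in a library, 34 of them within a single exon. Of the 719 circRNA, 0 reached 7000. Changes in linear RNA could therefore not be read at those 40 junctions.

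**Figure D1:**
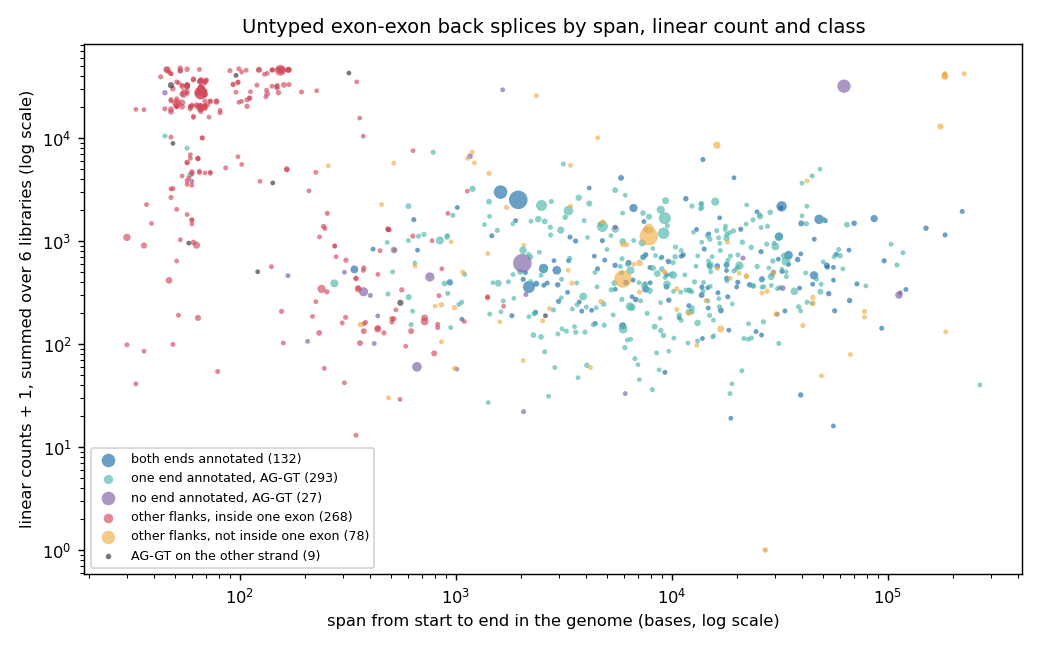
Each point is an untyped back splice, placed by the span between its ends (bases, log axis) and its linear count plus 1 summed over the 6 libraries (log axis); colour gives its kind with the number of members, and area grows with its back-splice reads. The 268 members within a single exon lie mostly at short spans and high linear counts, and the members with annotated ends at long spans and lower counts.

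Where both ends were annotated, the edges often belonged to different transcripts of a gene. In 41 of 132 members the edges belonged to the same transcript, in 85 to different transcripts of a gene, and in 6 to different genes. An edge that no protein-coding transcript contains was used by 69 of the 132 (52.3%), against 18 of the 719 circRNA (2.50%). Since circRNA are typed from lists of annotated ends, this contrast is a description. The 132 come from 101 gene entries, some without typed circRNA, and the 719 are not limited to those entries. Kansl1l, a KANSL1-like gene named after its values were seen, gave an example: the acceptor of exon 2 of a processed transcript was joined to the donors of exons 5, 6 and 8 of the coding transcript in members of 174, 159 and 18 reads. That acceptor is not particular to the members, since a typed circRNA of Kansl1l (chr1:66801049-66807604, 295 reads) used it as well.

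Where a single end was annotated, it was the acceptor in 226 members and the donor in 67. The other end lay 174 bases from the nearest annotated edge at the median, with 45 ends within 10 bases and 181 beyond 100 bases. It lay in a non-coding part of an exon in 189 members, in a coding exon in 103 and in an intron in 1.

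Members were not independent of each other. Grouping members whose ends both lie within 10 bases gave 666 groups, with 200 members in 59 groups of 2 or more. In 30 pairs the joined RNA sequence was the same at positions shifted by shared bases: the Malat1 junctions at chr19:5801881-5801946 and chr19:5801882-5801947 had 91, 79 and 47 reads each at 4-h post-hCG, and 61, 111 and 47 reads against 61, 109 and 47 reads at 0-h. Whether the same reads were counted at both was not tested. An acceptor was shared with another member by 173 members and a donor by 162. Shared sequence of at least 10 bases at the ends was found in 11 members, among them histone genes, where near-identical copies make the position uncertain.

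The members with most reads were led by Tulp4, which encodes a tubby-like protein. Its junction had 4827 reads and was the most-read back splice of the whole table. It joined the donor of exon 1 of 14 of the coding transcript Tulp4-201 to an acceptor upstream, a span of 1946 bases, that is annotated as the start of the last exon of a processed transcript, Tulp4-210. It was read at 4680, 3550 and 5573 CPM (normalised back-splice reads, scaled with TMM library factors) in the 4-h post-hCG libraries, and at 5954, 7217 and 6267 CPM in the 0-h libraries. All 4-h post-hCG libraries lay below all 0-h libraries, but the log2 fold change of −0.49 ± 0.15 (SE) did not pass over all junctions (edgeR quasi-likelihood, adjusted p = 0.311). Without 4-h post-hCG replicate 3 it was −0.65 and passed (edgeR adjusted p = 0.0498). The linear counts at this junction were 456, 294 and 329 at 4-h post-hCG and 513, 561 and 349 at 0-h, so back-splice reads outnumbered linear counts by 1.93 to 1. The 3 typed circRNA of Tulp4 had 66 reads in all. The same acceptor was joined to the donor of exon 3 of 14 in a second member with 217 reads, named after its values were seen.

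Gm53, a long non-coding RNA gene that lies between Hoxb13 and Hoxb9, had 2250 reads, the fifth most of the table. Its reads were 269, 105 and 507 at 4-h post-hCG, and 432, 413 and 524 at 0-h, and its linear counts were 62, 23 and 134 at 4-h post-hCG and 116, 118 and 154 at 0-h. The linear and back-splice counts were both lowest in 4-h post-hCG replicate 2 and highest, within each group, in replicate 3. The groups overlapped, and the log2 fold change was −0.56 ± 0.18 (SE; edgeR adjusted p = 0.348). It was −1.46 (edgeR adjusted p = 7.38e-09) without 4-h post-hCG replicate 3. Neither end of this junction is an annotated edge, although both carry the splice pair, and the entry had no typed circRNA.

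Tmem87b, a Golgi membrane protein gene, had the third most reads. Its main junction (976 reads, chr2:128841237-128849063) lies 2 bases beyond the AC and AT form shown above (242 reads), both ends moved together. Main-junction reads were 196, 144 and 165 at 4-h post-hCG and 173, 174 and 124 at 0-h, and the fold change was 0.16 ± 0.21 on the log2 scale (SE; edgeR adjusted p = 1.00). The AC and AT form starts at the acceptor of exon 12 of 19 of the coding transcript. Tmem87b had a single typed circRNA with 10 reads. The ends share 2 bases, so both forms give the same joined sequence, and their reads are given apart as the table has them.

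Morc3, which encodes a nuclear ATPase, had 878 reads at chr16:93847281-93853217, with 145, 168 and 96 reads at 4-h post-hCG and 137, 210 and 122 at 0-h. The donor is that of exon 7 of 17. The same donor was joined to acceptors 3 and 7 bases further on in members of 30 and 73 reads. The 2 typed circRNA of Morc3 had 107 reads.

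Among the other much-read members, RBM4B,Rbm4 (a splicing regulator) had 505 reads at chr19:4792398-4794009 and 389 at chr19:4784724-4794009, which share their acceptor, and Gm16586,Hnrnpu (a nuclear RNA-binding protein) had 380. Neither entry had a typed circRNA. The histone entry that begins with Hist1h4c had 485 reads, 54, 59 and 67 at 4-h post-hCG and 109, 108 and 88 at 0-h, with a log2 fold change of −0.68 ± 0.26 (SE; edgeR adjusted p = 0.782). Its ends share 35 bases with each other, so its position among the histone copies is uncertain. Zfa, an autosomal copy of a zinc finger gene, had 229 reads at a junction that GENCODE places in a pseudogene. Xpo7, an exportin, had 319 reads and Mdfic, a MyoD family inhibitor domain gene named after its values were seen, had 270.

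**Figure D2:**
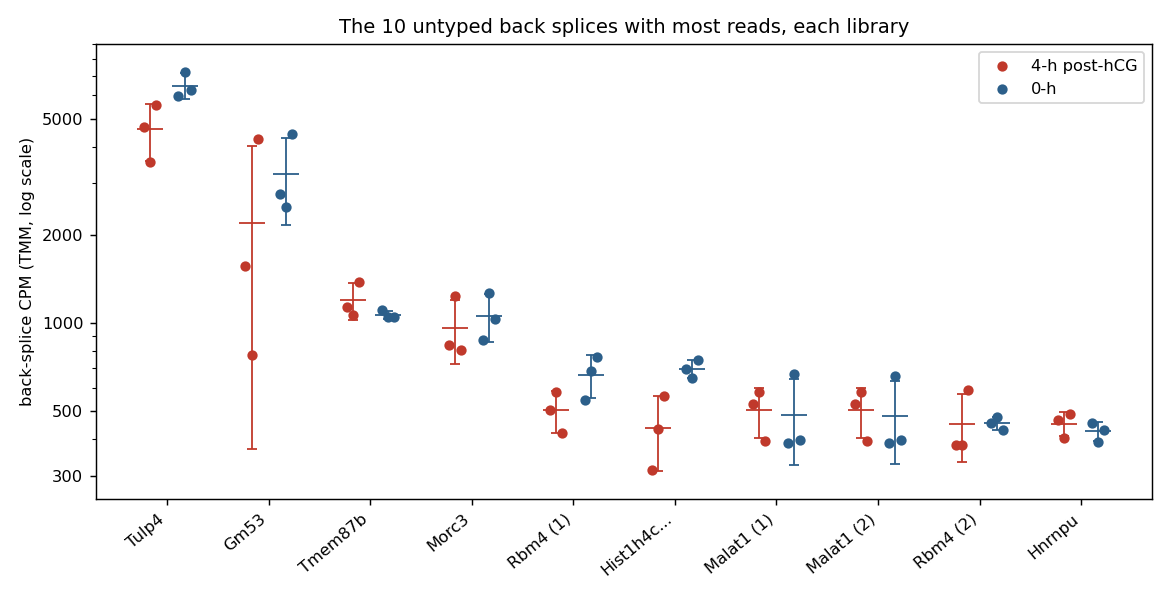
Back-splice CPM (TMM scaled, log axis) of the 10 members with most reads in each library, 4-h post-hCG left and 0-h right; points are libraries, and bars the mean and SD (n = 3 each). The 4-h post-hCG libraries lie below the 0-h libraries for Tulp4 and for Hist1h4c, and the groups overlap for Gm53 and for Malat1.

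The donor sequence of U12-type introns stood among the members, a pattern chosen after the values were seen and given with no test. The letters TATCCT, starting at the second base after the donor end on the strand of the gene, were found in 23 of 807 members (2.85%, exact binomial interval 1.82 to 4.25%). They stood at that place in 2 of 719 circRNA of the same entries (0.278%, 0.0337 to 1.00%) and in 12 of all 6968 circRNA with at least 10 reads (0.172%). The reverse complement at the same place was found in none of the 3 sets. The intervals cover counting error only, and the 23 members are not independent: they come from 17 gene entries, and 9 of them share a donor with another. In 17 of the 23 the donor is an annotated edge, and 8 are not flanked by AG and GT. Together they held 2249 reads.
The donor ends of the most-read cases are given with the motif in capitals, to show the sequence they share.
Morc3 donor: cgacctaaatttttagTATCCTttatttat
Xpo7 donor: gctcttcgaatggatgTATCCTaactcagg
Tmem87b donor: ttcacagatgtgtaaaTATCCTctgttcaa
Spc24 donor: ggatgatcaagggcagTATCCTttgagaag
Zcchc8 donor: atgggaaatacccaagTATCCTacatagtg
Ppil4 donor: aaagcccaaacaggagTATCCTttataaga
Slc9a7 donor: atcatcggtgcttttgTATCCTtttcctat
Tpp2 donor: ctggctccccatcatgTATCCTcctgatta

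These donors were often joined to acceptors that no annotation lists. In Xpo7 (chr14:70678079-70682850, − strand), the donor of exon 20 of 28 was joined to an acceptor 6 bases from the annotated edge, and in Spc24 (a kinetochore protein, 139 reads) the acceptor lay 4 bases away. Ppil4, a cyclophilin, had the donor of exon 11 of 13 joined to acceptors 4 bases apart, with 66 and 40 reads. Slc9a7, a sodium/proton exchanger of the Golgi, had 7 members, 3 of them with the motif, beside 7 typed circRNA of 632 reads. None of the 23 was called after hCG, with an adjusted p of 1.00 for each (edgeR). Each had reads in both groups, as in Zcchc8, a nuclear RNA turnover factor, with 25, 25 and 25 reads at 4-h post-hCG and 18, 22 and 14 at 0-h. In Zcchc8 each 4-h post-hCG library had more raw reads than each 0-h library, with a log2 fold change of 0.55 ± 0.42 (SE).

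Among the 78 members with other flanks that are not held within a single exon, 13 land on annotated edges when both ends are moved within the bases they share. The commonest flanks in this kind were GG and CA, in 9 members. Examples chosen after their values were seen are Katnal1 and Rab11fip2. Katnal1, a katanin-like microtubule-severing protein, had 17, 24 and 11 reads at 4-h post-hCG and 17, 17 and 9 at 0-h. Rab11fip2, a recycling endosome protein, had 12, 9 and 5 reads at 4-h post-hCG and 7, 4 and 5 at 0-h. In both, the shifted donor begins with GC, the rarer of the common donor pairs.

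The members within a single exon were concentrated in few, highly expressed RNAs. Calr, the calcium-binding chaperone calreticulin, had 49 members and 1328 reads. Malat1, a nuclear long non-coding RNA, had 44 members and 2024 reads, and 41 of these members were of this kind. RNase_MRP, the RNA of a ribosomal RNA processing enzyme, had 11 members, and Sox4, a transcription factor, 8. The fifth place by number was held by Gm5815, Slc9a7 and mt-Rnr2 with 7 each. None of Calr, Malat1, RNase_MRP and Sox4 had a typed circRNA at this filter.

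The Calr members spanned 33 to 112 bases, all within a window at chr8:84842677-84842834 of its last exon, in the coding part for the cases shown. Purines made up 83.3% of the enclosed bases at the median, against 49.8% of the exon. The Malat1 members spanned 52 to 227 bases, with 76.7% purines against 54.0% of the exon, and the Sox4 members reached 89.2% against 50.3%. Over all 268 members within a single exon the enclosed bases had 61.6% purines at the median and their exons 50.7%, and 200 of the 268 exceeded their exon. Taken member by member, the median difference was 7.77 percentage points. By gene, 60 of 98 entries had a median above their exon. Without Calr and Malat1 the excess was smaller, 55.1% against 50.9%, with 112 of 178 above their exon. The median difference member by member was then 1.79 percentage points. RNase_MRP showed no such excess, at 49.4% against 49.5%.

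**Figure D3:**
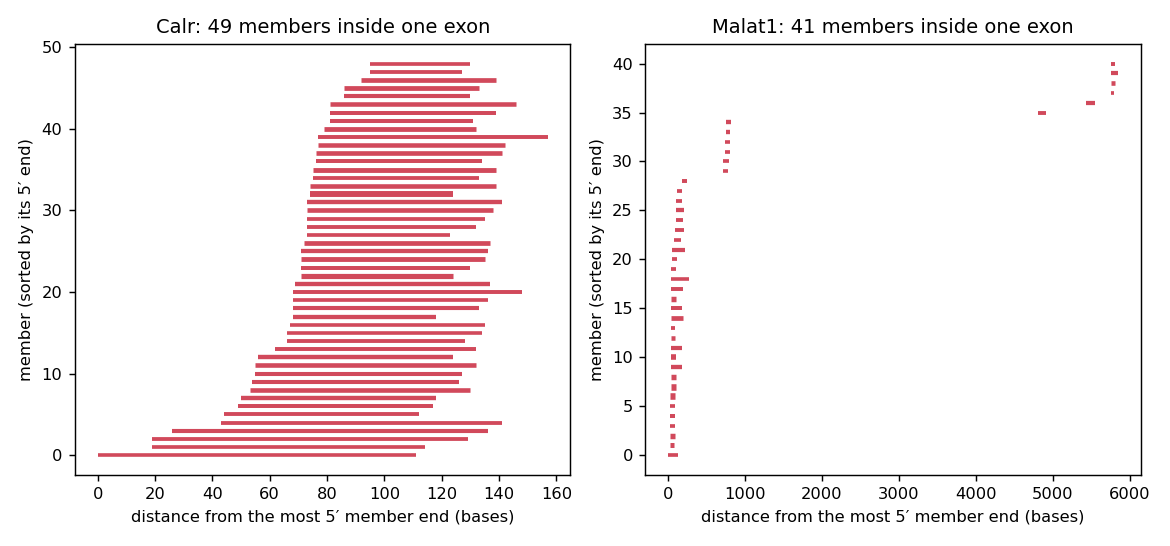
Each line is a member of Calr (left, 49) or Malat1 (right, 41) within a single exon, drawn from its 5′ to its 3′ end as distance in bases from the most 5′ end, and thicker where it had more reads. The Calr members overlap in a single short window, while those of Malat1 fall in a few separate clusters.

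The summed reads of Calr and of Malat1 overlapped between the groups. Calr members together had 284, 224 and 175 reads at 4-h post-hCG and 195, 233 and 217 at 0-h. Malat1 members had 393, 330 and 262 reads at 4-h post-hCG and 265, 564 and 210 at 0-h, with the highest value in 0-h replicate 2. RNase_MRP had 105, 104 and 85 reads at 4-h post-hCG and 129, 146 and 119 at 0-h, and 4-h post-hCG libraries were below the 0-h libraries in raw reads. Members a few bases apart enter these sums side by side, so they are not counts of molecules. The most-read RNase_MRP member alone had 311 reads. The mitochondrial genome gave 22 members, 20 of them within a single exon, and their linear counts were near the ceiling: mt-Rnr2 had 7594 to 7679 at 4-h post-hCG and 7579 to 7720 at 0-h at its most-read junction.

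The members' share of the back-splice reads on gene-naming junctions overlapped between the time points. Members held 4.54%, 3.82% and 4.35% of these reads in the 4-h post-hCG libraries and 3.96%, 4.50% and 3.97% in the 0-h libraries, a mean of 4.23 ± 0.374% at 4-h post-hCG and 4.14 ± 0.308% at 0-h (SD, n = 3 each; two-sided exact permutation p = 0.9, smallest possible 0.1). Within the 225 entries that also have circRNA, 0.282, 0.245 and 0.273 member reads were counted per circRNA read at 4-h post-hCG, and 0.261, 0.294 and 0.279 at 0-h. The difference in log2 ratio was −0.06 (exact permutation p = 0.6), and it was 0.10 in the other direction without the Tulp4 junction (exact permutation p = 0.3).

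Within the same entries the 323 members and the 719 circRNA differed in every library. Members had 34.5 ± 4.58 back-splice reads per 1000 linear counts and the circRNA 54.2 ± 7.30 (SD, n = 6 libraries), lower in 6 of 6 libraries. Both sets were chosen by their back-splice reads, so this ratio is a description. The median log2 of linear count plus 1 was 6.65 ± 0.22 at members and 7.22 ± 0.25 at the circRNA, also lower in 6 of 6 (two-sided exact sign-flip permutation p = 0.03125, the smallest possible, and adjusted over 7 measures 0.03125). Every library holds the same junctions, so that p-value measures the spread between libraries and not between junctions. The 7 measures include the ratio above and the shares below, which are descriptions. All 7 gave the same smallest p, so the adjusted value adds nothing. With all 807 members in place of the 323, the reads per 1000 linear counts came to 6.41, and the entries without circRNA include the abundant RNAs named above. AG and GT flanked 81.0% of member reads and 97.1% of circRNA reads, and both ends were at annotated edges for 44.8% of member reads and for 100% of circRNA reads. Since circRNA are typed from annotated ends, both shares are a description and not a test.

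No member passed the test for a change in back-splice reads after hCG. In the edgeR quasi-likelihood test 0 members were called higher and 0 lower where a call needed an adjusted p ≤ 0.1 and a fold change ≥ 1.5. Over all 8361 junctions tested 14 (0.167%) were called, all higher. DESeq2 called 0 members as well. At an unadjusted p under 0.05 there were 68 members, 44 higher and 24 lower, or 8.43% of the members against 5.55% of all junctions. The higher ones include members with no read at 0-h, such as Ptgs2, Pcdh10 and Far1, which reached 10 reads through the 4-h post-hCG libraries alone. Such members made up 3.72% of the members and 1.22% of all junctions, against 0.743% and 0.861% with no read at 4-h post-hCG. The excess over all junctions and the lean to higher are therefore a description. On simulated counts of this depth the back-splice test recovered 27 of 100 junctions changed 4-fold and 3 of 100 changed 2-fold, so most changes of these sizes would not be called at this depth. The groups did not overlap in CPM with all 4-h post-hCG libraries higher for 48 members (5.95%, background 5.14%) and with all lower for 43 (5.33%, background 5.80%). Among the typed circRNA of the same entries 1 was called, the Vcan isoform at chr13:89721567-89731534, with 94, 27 and 64 reads at 4-h post-hCG and 4, 12 and 11 at 0-h.

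No read at 0-h was found for 30 members (3.72%, background 1.22%), and no read at 4-h post-hCG for 6 (0.743%, background 0.861%). The 30 reached the minimum of 10 reads through the 4-h post-hCG libraries alone, so their values are a description. Itga2, the collagen-binding integrin subunit, had 13, 1 and 7 reads at 4-h post-hCG and 0, 0 and 0 at 0-h, at least 7.74-fold higher against a floor of 3 counts over the group. Its adjusted p was 0.175 (edgeR), and without 4-h post-hCG replicate 2 it passed at 0.0848. The progesterone receptor gene Pgr had 9, 4 and 0 reads at one junction and 6, 1 and 4 at another in the 4-h post-hCG libraries, against 0 in every 0-h library. Both use the same unannotated donor in the last exon. Vcan, the matrix proteoglycan versican, had 6, 3 and 2 reads at chr13:89689043-89689114 at 4-h post-hCG, and 0 in every 0-h library. Ptgs2, the prostaglandin synthase of ovulation, had 10, 0 and 0 reads at 4-h post-hCG and 0 at 0-h, so all its reads come from a single mouse. None of these passed the test over all junctions.

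Linear counts at the members were called more often than back-splice reads, with a test that recovered more: on simulated linear counts 86 of 100 junctions changed 2-fold and 99 of 100 changed 4-fold were called. Of 805 members tested, 97 were called higher at 4-h post-hCG (12.05%, background 11.1%) and 68 lower (8.45%, background 10.5%), from 71 and 45 gene entries. Of those called higher, 12 had no back-splice read at 0-h and so became members through the 4-h post-hCG libraries alone. With no TMM factors the split was 77 higher and 104 lower, since that scaling moves the median of all junctions to −0.16 on the log2 scale, against 0.01 with TMM. At the circRNA of the same entries 59 of 719 were higher and 61 lower. By kind, 37 of 268 members within a single exon were higher and 7 lower, while 36 of 293 with a single annotated edge were higher and 43 lower. Junctions of a gene share linear counts, and the 268 come from 98 gene entries and the 293 from 231. All Sox4 members are among the 37, and calls were not counted by gene within a kind.

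The largest linear increases were those of Ptgs2 and Pgr, both on the ovulation list. At the Ptgs2 junction the linear counts were 3109, 2241 and 2160 at 4-h post-hCG and 1, 4 and 0 at 0-h, a log2 fold change of 10.55 ± 0.32 (SE; edgeR adjusted p = 7.77e-17). At the Pgr junction with 9, 4 and 0 back-splice reads they were 536, 325 and 335 at 4-h post-hCG and 0, 1 and 1 at 0-h, a ratio of 637 scaled to library size, with an exact counting interval of 176 to 5268. The other Pgr junction had 680 at 4-h post-hCG and 0 at 0-h, at least 242-fold higher. Pcdh10, a protocadherin, had linear counts of 493, 1162 and 529 at 4-h post-hCG and 13, 35 and 21 at 0-h (log2 fold change 5.09 ± 0.31, SE; edgeR adjusted p = 4.26e-12). Itga2, Slc7a8 (an amino acid transporter) and Far1 (fatty acyl-CoA reductase) had log2 fold changes of 4.22, 3.46 and 3.38. None of these members had a back-splice read at 0-h. They became members through the 4-h post-hCG libraries alone, so their linear changes are a description. At 4-h post-hCG, Pcdh10 had 3, 9 and 0 back-splice reads, Slc7a8 4, 7 and 1, and Far1 14, 0 and 0. The Far1 reads come from a single mouse. The Slc7a8 member had its splice pair on the opposite strand. The most-read members of that kind were AC154271.1, with 16, 16 and 8 reads at 4-h post-hCG and 9, 7 and 4 at 0-h, and Gm13835, a processed pseudogene, with 9, 11 and 6 reads at 4-h post-hCG and 16, 6 and 11 at 0-h.

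The largest linear decreases, each taken at the most-read called junction of a gene, were smaller. Mical3, an actin-oxidising enzyme, had linear counts of 56, 66 and 25 at 4-h post-hCG and 162, 223 and 202 at 0-h, with a log2 fold change of −1.93 ± 0.21 (SE; edgeR adjusted p = 2.14e-07). Its back-splice reads were 2, 2 and 0 at 4-h post-hCG and 7, 9 and 5 at 0-h, with a log2 fold change of −2.26 ± 1.11 (SE; edgeR adjusted p = 0.846). The entry Slc28a2,Gm14085 had a linear log2 fold change of −2.21, but its ends share 36 bases, so the neighbouring copies cannot be told apart. Tef (a PAR-domain transcription factor), Akap11 (a protein kinase A anchor) and Tom1l1 had −1.44, −1.35 and −1.24. Less-read junctions of Dtx3l and Rimklb, named after their values were seen, were called at −1.46 and −1.42. Ranbp17, a nuclear transport receptor, passed at −1.27 with an edgeR adjusted p of 0.0734. Without 4-h post-hCG replicates 1 and 2 in turn that edgeR adjusted p was 0.205 and 0.101, and without 0-h replicates 1 and 3 in turn 0.144 and 0.235. The Tom1l1 call was lost without 0-h replicate 3, at an edgeR adjusted p of 0.115.

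**Figure D4:**
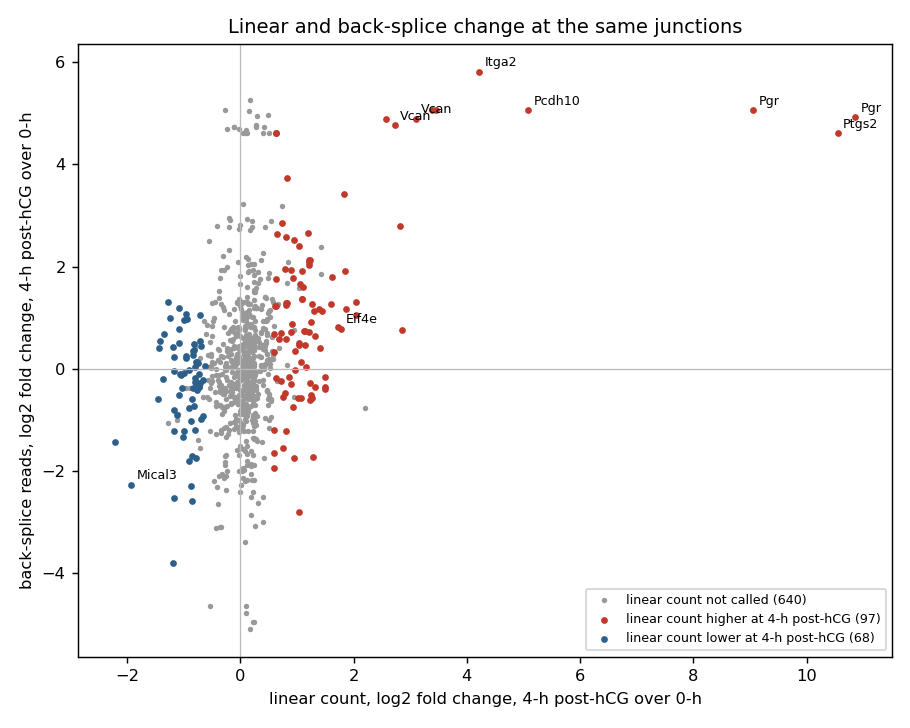
Each point is a member placed by its log2 fold change (4-h post-hCG over 0-h) in linear count (x) and in back-splice reads (y); red marks the 97 with linear counts called higher, blue the 68 called lower and grey the other 640. Points near 5 on the y axis, and Pgr and Ptgs2 at the right, have no or few reads at 0-h, so their positions depend on the prior count; no member was called on the y axis.

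Linear and back-splice changes moved together weakly across members. Over the 805 members Pearson's r of the log2 fold changes was 0.37 and Spearman's rho 0.26. Over the 719 circRNA the values were 0.18 and 0.11. Members with no back-splice read at 0-h enter these values, and their back-splice change is high because they became members through the 4-h post-hCG libraries alone. Such junctions made up 3.72% of the members and 1.25% of the circRNA, so the higher values at members cannot be read as a difference between the sets. The correlation without them was not tested. Members of a gene also share linear reads and both measures share the libraries, so the correlations describe the data without a test. Eif4e, the cap-binding protein, had both sides higher: 73, 78 and 65 back-splice reads at 4-h post-hCG and 41, 49 and 40 at 0-h (log2 fold change 0.79 ± 0.29, SE; edgeR adjusted p = 0.730), and linear counts of 288, 333 and 280 at 4-h post-hCG and 95, 110 and 81 at 0-h. The linear log2 fold change was 1.77 ± 0.17 (SE; edgeR adjusted p = 1.48e-08). The 4-h post-hCG libraries lay above the 0-h libraries on both sides. Its junction (chr3:138546321-138555491) starts at the acceptor of exon 3 of 8 and ends inside a coding exon at an unannotated GT.

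By pathway, the members covered few of the genes that define granulosa cells. The ovulation and cumulus matrix list had 5 members from Pgr, Ptgs2 and Vcan. All 5 had no back-splice read at 0-h and so became members through the 4-h post-hCG libraries alone, and that their linear counts were called higher (background 11.1%) is a description. The steroid list had 3 members, from Cyp19a1 (aromatase) and Scarb1 (the HDL receptor). Scarb1 had linear counts of 6926, 6440 and 5592 at 4-h post-hCG and 2724, 2090 and 1860 at 0-h and was called higher, while both Cyp19a1 members were called lower, at −0.96 and −0.99 on the log2 scale. Of 14 members of the granulosa list, 2 linear counts were called higher and 4 lower. The higher ones were neighbouring junctions 4 bases apart in Inhba, the inhibin beta-A subunit, and the lower ones in Esr2, the estrogen receptor beta, and in Amhr2, the anti-Müllerian hormone receptor, with 2 junctions each. Esr2, named after its values were seen, had 0, 1 and 0 back-splice reads at 4-h post-hCG and 9, 8 and 3 at 0-h at chr12:76121771-76123327, with linear counts of 137, 166 and 70 at 4-h post-hCG and 269, 338 and 284 at 0-h. Its linear log2 fold change was −1.19, and the back-splice change did not pass.

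The remaining lists had few calls. The chaperone list had 58 members, 49 of them from Calr, with 1 linear count called higher, that of Hsp90b1, and 0 lower. The nuclear RNA list had 45 members of Malat1 and Neat1, with 1 higher (Neat1) and 0 lower, and the mitochondrial list 22 members with 0 called either way. Of these, 8 of the 45 and 11 of the 22 reached a linear count of 7000 in a library, where a change could not be read. The translation list had 5 members with 0 called; Rpl41, a ribosomal protein gene, had 1, 2 and 1 back-splice reads at 4-h post-hCG and 12, 2 and 7 at 0-h (edgeR adjusted p = 0.812). The matrix and adhesion list had 2 members and the cytoskeleton list 1, Flna, with 0 called, and the RNA processing list had 3 with 1 higher, the lesser of the Hnrnpu junctions.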

How the data were processed

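Total stranded RNA of 6 mice, 1 library each, was sequenced as paired ends. By the methods of the paper and the submitters' processing notes, FastQC and cutadapt served the authors for read checks and trimming, TopHat and TopHat-Fusion for mapping to GRCm38, and CIRCexplorer for the back splices. The authors deposited raw counts per junction, unnormalized, of back-splice reads and of linear reads, and no source used here states how the linear ones were made. A second deposited table of typed circRNA, with normalized values, regularized logs, fold changes and p-values, was not used.

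The junction ends were read from the RefSeq GRCm38 genome (pysam 0.24.0) and set against GENCODE exon edges; the deposited starts and ends are 1-based. Changes were tested with edgeR 4.0.16 (R 4.3.3; quasi-likelihood, TMM, Benjamini-Hochberg adjustment) over the 8361 junctions of any type that name a gene and have at least 10 reads, and over the 8351 of these with at least 10 linear counts. The library size was the back-splice reads on gene-naming junctions (119094 to 163145), where 1 read is worth 5.80 to 8.46 CPM. Calls needed an adjusted p ≤ 0.1 and a fold change ≥ 1.5. Shares and ratios were compared by exact permutation over libraries. P-values measure the spread between mice. DESeq2 1.42.0, other minimums, scalings, a replicate block and leaving out each library were the alternatives. Both tests were tested on simulated data.

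Members and lists were chosen with earlier results of these data known. Named are the 10 members with most reads, the 6 largest linear calls each way (1 junction a gene, its most-read called one), the 5 gene names with most members, up to 3 members of each list, and the 3 most-read of each kind. Members outside this rule, those that make up a count of 5 or fewer included, were named after their values were seen.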

Additional observations from a re-analysis of the deposited data

How the results depend on the processing

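Leaving out each library in turn gave 0 to 1 members called higher and 0 to 4 lower in back-splice reads, and 87 to 110 higher and 64 to 81 lower in linear counts. The back-splice calls were Tulp4, Gm53 and the histone entries that begin with Hist1h4d (99 reads) and Hist1h2bb (62 reads) without 4-h post-hCG replicate 3, the same 2 histone entries without 0-h replicate 2, and Itga2, called higher, without 4-h post-hCG replicate 2. With a minimum of 20 reads the linear test called 30 members higher and 36 lower, from fewer members, and with no TMM factors it called 104 lower. The difference in the members' share of reads (0.0918 percentage points, 4-h post-hCG minus 0-h) was -0.0727 with a minimum of 20 reads and ran between -0.0604 and 0.301 when each library was left out. The difference in the log2 ratio of member to circRNA reads was -0.06 and became 0.0724 with a minimum of 5 reads and 0.0961 without the Tulp4 junction, an alternative chosen after seeing the data, and between -0.105 and -0.00061 without each library. The differences between members and circRNA of the same entries kept their direction under the minimums of 5 and 20 reads, with all members (also chosen after seeing the data), without Tulp4 and without each library, except the share of code 2 reads, which was 0 in members and circRNA with a minimum of 20 reads. Without each library they ran between -21.0 and -18.4 reads per 1000 linear counts, -0.59 and -0.56 in median log2 linear count, 15.4 and 16.3 points for code 0, -16.5 and -15.5 points for code 1 (and for AG and GT), 0.146 and 0.240 points for code 2 and -55.7 and -53.8 points for annotated edges. The replicate numbers of the labels did not pair the libraries (correlation of same-numbered deviations 0.0338, 0.0107 and 0.0111 for back-splice reads, and 0.0139, -0.0410 and -0.0410 for linear counts). With the replicate block 1 member, Gm53, was called lower in back-splice reads at an edgeR adjusted p of 0.0139, and 96 higher and 72 lower in linear counts. Leaving out the junctions at the linear ceiling, added after seeing the data, left 97 higher and 68 lower. On simulated counts for all 8361 junctions the back-splice test recovered 3 of 100 changed 2-fold.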
